A study of Arabidopsis thaliana with 8 samples.

Results

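Endosperm that lacked every functional copy of NRPD1 was compared with endosperm that carried only the paternal copy, for sRNAs of 23 nt counted at genes and at transposable elements (TEs). The comparison used 6 of the 8 sRNA libraries of the series, chosen by their titles. All were made from F1 endosperm of crosses between a Ler mother and a Col-0 father, collected 7 days after pollination. The 3 nrpd1-/- libraries came from crosses in which both parents were homozygous nrpd1 mutants. The 3 mat nrpd1+/- libraries came from mutant Ler mothers pollinated by wild-type Col-0 fathers, so the mother was an nrpd1 mutant in both groups and only the father's genotype differed. The allele was a single T-DNA insertion (nrpd1a-4) that arose in Col-0 and was introgressed into Ler, and the mutant Ler plants still held Col-0 segments. Each library pooled endosperm dissected from many seeds.

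RNA polymerase IV (Pol IV) is a plant-specific polymerase that starts RNA-directed DNA methylation (RdDM), and NRPD1 is its largest subunit. Pol IV makes short transcripts, mostly at TEs and other repeats, and RDR2 copies them into double-stranded RNA. DCL3 cuts this RNA into duplexes whose strands are mostly 24 nt and partly 23 nt long, so 23-nt sRNAs are a minor companion of the 24-nt class. The endosperm holds more maternal than paternal genomes, and sRNAs of this tissue are known for their parent-of-origin bias. Other double-stranded RNAs, such as the hairpins transcribed from inverted repeats, can be diced without Pol IV.

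Reads at TEs fell almost everywhere in nrpd1-/- endosperm, and a large part of those that were left lay in 1 family of palindromes, described below. The family has 4 palindromic copies in the Col-0 genome (TAIR10.1, RefSeq), each of 2 facing arms that were 79.3 to 81.0% identical to each other. They lie at chr2:10643785-10645027, chr3:12879050-12880286, chr3:13265475-13266705 and chr3:13291256-13292480, and between copies they were 91.3 to 96.3% identical. The annotation places Helitron and other DNA TE fragments in them together with AGL28-like pseudogenes. A further pair of places, both on chromosome 1, matched a single arm only. These were the MADS-box genes AGL28 (AT1G01530) and AGL23 (AT1G65360), and they were among the genes that lost their 23-nt sRNAs. The same 80 bases are shown from each place, so that loci whose sRNAs stayed and loci whose sRNAs were lost can be compared. Each is read 5′ to 3′ along the arm, and capitals mark bases that differ from the first sequence.
Chromosome 2 palindrome, first arm, chr2:10643826-10643905, plus strand: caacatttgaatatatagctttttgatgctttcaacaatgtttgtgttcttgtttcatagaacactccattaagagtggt
Chromosome 2 palindrome, facing arm, chr2:10644902-10644981, minus strand: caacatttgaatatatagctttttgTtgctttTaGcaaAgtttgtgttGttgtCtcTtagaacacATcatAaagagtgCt
First chromosome 3 palindrome, chr3:12879091-12879170, plus strand: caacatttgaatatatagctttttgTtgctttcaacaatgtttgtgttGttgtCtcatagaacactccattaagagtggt
Second chromosome 3 palindrome, chr3:13265513-13265592, plus strand: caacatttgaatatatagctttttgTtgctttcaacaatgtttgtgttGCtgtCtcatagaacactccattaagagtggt
Last chromosome 3 palindrome, chr3:13291290-13291369, plus strand: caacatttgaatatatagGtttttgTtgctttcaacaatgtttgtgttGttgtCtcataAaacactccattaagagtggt
AGL28 (AT1G01530), single arm, chr1:193369-193448, plus strand: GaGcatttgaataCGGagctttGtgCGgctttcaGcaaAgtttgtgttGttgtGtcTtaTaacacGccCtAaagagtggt
AGL23 (AT1G65360), single arm, chr1:24281551-24281630, minus strand: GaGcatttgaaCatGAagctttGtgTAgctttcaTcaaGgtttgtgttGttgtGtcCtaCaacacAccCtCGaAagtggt
Over these 80 bases the facing arm was 86.2% identical to the first arm and the 3 chromosome 3 copies were 93.8 to 96.2% identical to it. AGL28 was 78.8% and AGL23 76.2% identical.

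The libraries differed in depth and in makeup. The 23-nt reads counted at genes numbered 106654 to 189940 in nrpd1-/- and 314461 to 478867 in mat nrpd1+/- libraries, and those at TEs 21208 to 25992 and 1518405 to 2516291. Reads were scaled by the mature miRNA reads of the same library (24-nt class). These numbered 31761, 28085 and 19645 in nrpd1-/- and 17579, 17785 and 16855 in mat nrpd1+/-. They are 24-nt reads at annotated mature miRNA entries, some of which lie inside tested features and may hold Pol IV-dependent reads. Leaving those entries out moved the log2 values by about -0.29. A level is given below as reads per 10000 of these miRNA reads. NRPD1 itself held 0, 1 and 2 reads of 23 nt in nrpd1-/-, against 140, 88 and 65 in mat nrpd1+/-, but sRNAs at a gene do not measure its mRNA and so do not check the genotype. For the same reason the tissue could not be checked by marker mRNAs.

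At TEs, 23-nt sRNAs were lower in nrpd1-/- endosperm by a mean of 129-fold. The 3 nrpd1-/- libraries held 0.719, 0.925 and 1.08 reads at TEs per mature miRNA read, against 143, 119 and 90.1 in the mat nrpd1+/- libraries. The groups were far apart, with means of 0.908 ± 0.181 in nrpd1-/- and 117 ± 26.6 in mat nrpd1+/- (SD, n = 3 each). An exact permutation test, 2-sided, returned p = 0.1, which is the least that 3 libraries against 3 can reach. At genes the corresponding levels were 5.98, 4.92 and 5.43 in nrpd1-/-, against 27.2, 21.6 and 18.7 in mat nrpd1+/-, a mean 4.14-fold difference (exact permutation p = 0.1). This difference at genes depended on the scale. Its log2 value of -2.03 became -0.79 with genic TMM scaling and -0.12 with total quality-filtered reads (exact permutation p = 0.1 and 0.6), while that at TEs was -5.09 with total reads (p = 0.1). In these bulk samples fewer cells of a type and less RNA per cell cannot be told apart.

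**Figure D1:**
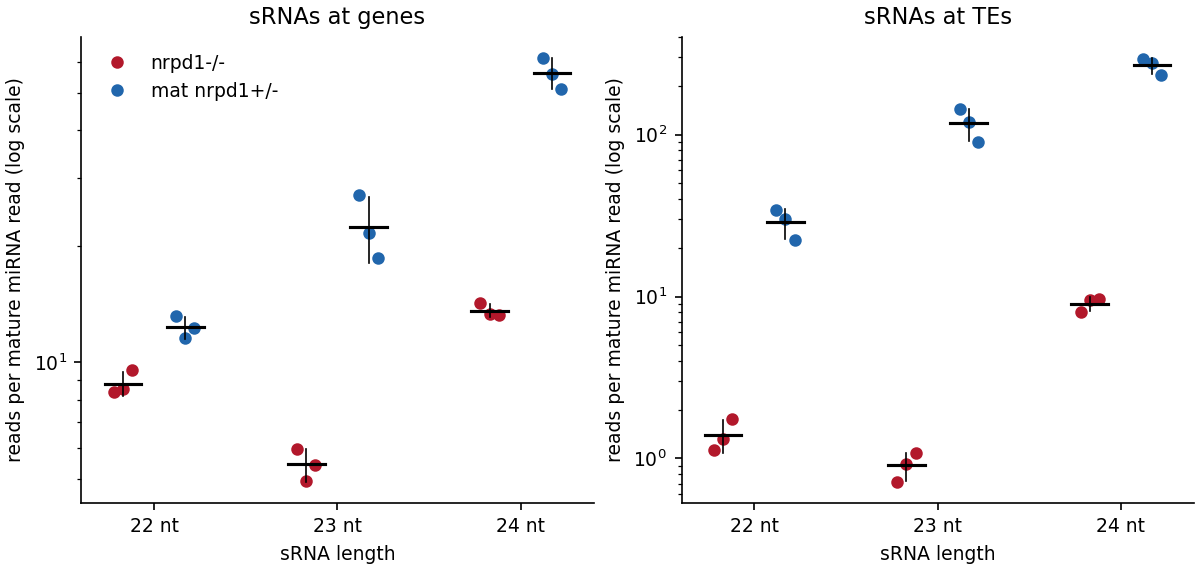
Summed reads per mature miRNA read (log axis) at genes and at TEs for sRNAs of 22, 23 and 24 nt, with 1 point per library, the mean as a bar and 1 SD as a line. At TEs the nrpd1-/- libraries lay between 0.719 and 1.08 for 23-nt sRNAs and the mat nrpd1+/- libraries between 90.1 and 143.

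The neighbouring size classes were lower too. Reads of 22 nt at TEs averaged 1.40 ± 0.319 per miRNA read in nrpd1-/- and 28.8 ± 6.05 in mat nrpd1+/-, and those of 24 nt averaged 9.03 ± 0.906 and 267 ± 30.1 (SD, n = 3 each). The groups did not overlap in either class (exact permutation p = 0.1 for each). The ratio of means was thus 20.6-fold for 22 nt, 129-fold for 23 nt and 29.6-fold for 24 nt. The 9 TEs inside the palindromes held a mean of 50.0% of the 23-nt and 70.1% of the 24-nt reads at TEs in nrpd1-/-. In mat nrpd1+/- they held 0.277 and 1.44%. The ratios for 23 and 24 nt, and the contrast between them, therefore depend in part on these TEs.

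Of 27104 TE insertions listed, 12126 had enough reads to be tested, and 12106 of these were called lower in nrpd1-/- (99.8%). For a call, edgeR's quasi-likelihood test had to give a p adjusted by Benjamini-Hochberg of at most 0.05, with a change of 2-fold or more. Of the rest, 2 were called higher (0.0165% of those tested) and 18 were neither. Most of these TEs could be tested only because of their reads in mat nrpd1+/-. Of the 63 tested TEs with at least 10 reads in every nrpd1-/- library, 45 were lower, 2 higher and 16 neither. For 5208 tested TEs not 1 read was found in the 3 nrpd1-/- libraries, and for 12105 every nrpd1-/- library lay below every mat nrpd1+/- library. With features at 0 set to the floor of 3 reads over the group, the median change was -7.32 on the log2 scale, a 159.8-fold fall. At least 10 reads in each library of the group were reached by 66 TEs in nrpd1-/- and by 12119 in mat nrpd1+/-.

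Every TE group fixed by family name was lower with few exceptions, as were 99.8% of all tested TEs, so the counts do not set groups apart. The median change over all tested TEs was -7.32 at the floor. All 1776 tested ATHILA insertions, the Gypsy retrotransposons that fill the pericentromeres, were called lower, with a median change of -7.89 at the floor. The same was true of all 500 En/Spm, 546 hAT and 680 LINE insertions tested, whose medians were -7.84, -7.31 and -7.58. Helitrons, rolling-circle DNA transposons, had 3938 of 3947 lower with a median of -6.93. MuDR elements had 1718 of 1720 lower and a median of -7.35, and Copia retrotransposons 654 of 655 and -7.60. Among the 152 families with at least 20 tested insertions, ATGP2N, a Gypsy family, kept the most, with a median of 7.02% of the mat nrpd1+/- level in nrpd1-/- over 36 insertions that were all called lower. The median over all tested TEs was 0.140%. Both of these medians took TEs with no read in nrpd1-/- as having nothing left, without the floor.

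The 6 called TEs with the highest level in mat nrpd1+/- were 3 VANDAL elements, which are MuDR-like DNA transposons, 1 Helitron and 2 ARNOLD elements. The VANDAL8 insertion AT3TE63215 (chr3:15634917-15639169) held 18, 25 and 26 reads in nrpd1-/-, against 11949, 10046 and 7374 in mat nrpd1+/-. Its level was 9.27 ± 3.797 in nrpd1-/- and 5607 ± 1212 in mat nrpd1+/- (SD, n = 3 each), so that 0.165% was left (log2 fold change -9.27 ± 0.49 SE, edgeR adjusted p = 4.8e-74). The VANDAL8 insertion AT3TE63205 beside it held 14, 19 and 7 reads, against 5489, 3395 and 3034. VANDAL3 AT2TE21295 (chr2:5190752-5213747) held 21, 20 and 16 reads in nrpd1-/-, against 9149, 7096 and 5670 in mat nrpd1+/-. HELITRONY3 AT4TE09825 held 24, 29 and 26, against 8939, 6330 and 4943. The ARNOLD3 insertions AT2TE11515 and AT4TE20075 held 9 to 25 reads per nrpd1-/- library and 2636 to 4474 per mat nrpd1+/- library. In all 6 the groups were separated by more than 100-fold, with 0.165 to 0.269% of the mean level left.

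The TEs with the steepest fitted falls had no read at all in nrpd1-/-. HELITRONY3 AT5TE70155 held 767, 738 and 555 reads in mat nrpd1+/- and was at least 1045-fold lower in nrpd1-/-, at the floor of 3 reads over the group. VANDAL5 AT3TE48770 was at least 969-fold lower, HELITRONY3 AT4TE23785 at least 899.7-fold and ATHILA4C AT4TE15585 at least 866-fold. Absence of reads here limits the level and does not show that no 23-nt sRNA was made.

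**Figure D2:**
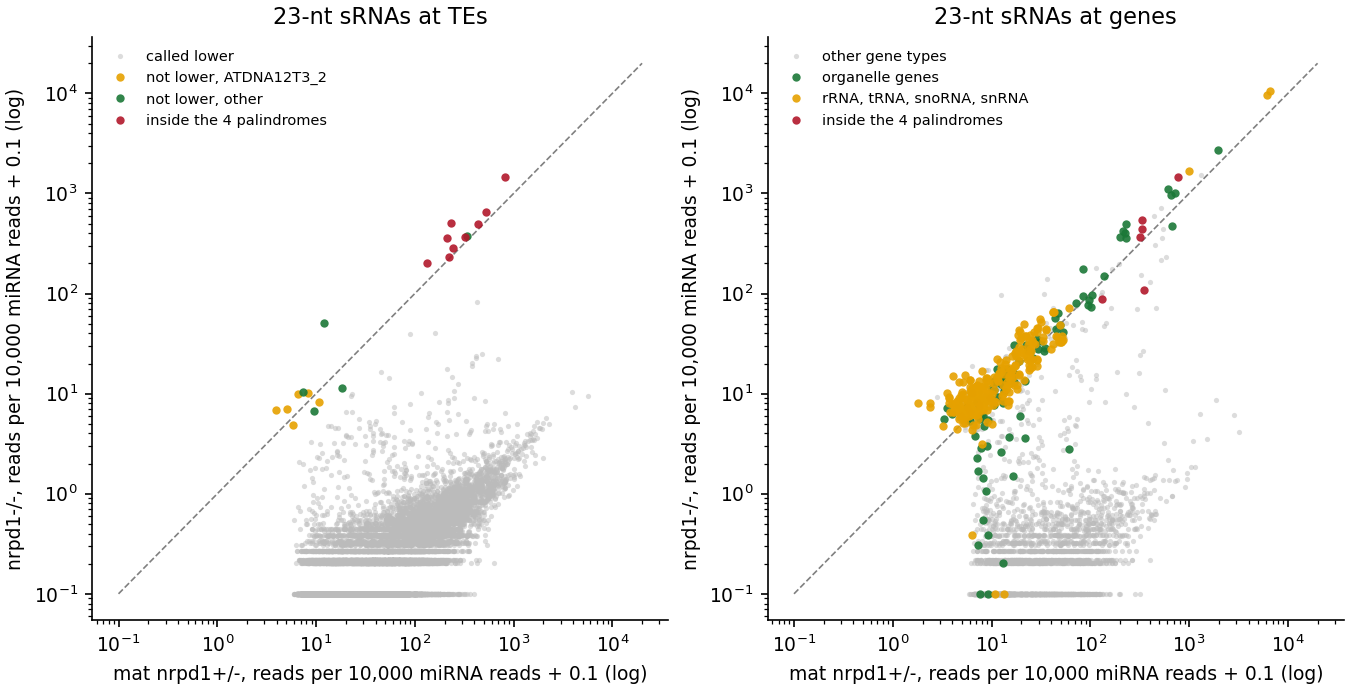
Mean 23-nt level in nrpd1-/- (vertical) against mat nrpd1+/- (horizontal) for every tested TE and gene, both as reads per 10000 mature miRNA reads plus 0.1 on log axes, with the line of equality dashed. Nearly all TEs lie far below the line, and 9 TEs inside the 4 palindromes lie near or above it, as do most rRNA, tRNA, snoRNA and snRNA genes.

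What was left at TEs in nrpd1-/- came from few insertions. The 20 tested TEs that were not called lower held 55.5% ± 1.53 of the 23-nt reads at TEs in nrpd1-/- and 0.313% ± 0.0588 in mat nrpd1+/- (SD, n = 3 each). Of these 20, 9 lie inside the 4 palindromes whose arms are printed above, and all 9 tested TEs there were among them. These 9 took 48.4, 49.1 and 52.4% of the 23-nt reads at TEs in the nrpd1-/- libraries, against 0.226, 0.267 and 0.337% in the mat nrpd1+/- libraries. Their summed level was 3485, 4545 and 5653 in nrpd1-/-, against 3236, 3168 and 3036 in mat nrpd1+/-. Every nrpd1-/- library thus lay above every mat nrpd1+/- library at this scaling, while the rest of the TEs lost nearly all reads. With miRNA entries inside tested features left out of the scale, 5 of the 9 changed sign to values between -0.26 and -0.014 on the log2 scale. The 24-nt reads were divided likewise, with 67.4 to 74.4% in these 9 TEs in nrpd1-/- and 1.24 to 1.77% in mat nrpd1+/-.

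Within the chromosome 2 palindrome, ATREP11 AT2TE45635 (chr2:10644006-10644601) rose and was the second of the 2 TEs called higher. Its levels were 389 to 611 in nrpd1-/- and 219 to 241 in mat nrpd1+/-, from 1237, 1473 and 1201 reads against 385, 429 and 391 (log2 fold change 1.14 ± 0.34 SE, edgeR adjusted p = 7.0e-04). Without nrpd1-/- replicate 3 its change was 0.99 and 1 TE was left as higher, without miRNA entries inside tested features its change was 0.83 and it was not called either, and without mat nrpd1+/- replicate 1 the number of TEs called higher was 6. ATREP10D AT2TE45640 in the facing arm held 3826, 4119 and 3435 reads in nrpd1-/-, against 1481, 1481 and 1305 in mat nrpd1+/-, a change of 0.85 ± 0.33 that passed the p but not the fold. ATREP4 AT2TE45630, in the first arm, had a change of 0.30 ± 0.33 and overlapping groups. The pseudogene AT2G25025, annotated as AGAMOUS-like 28 derived, overlaps AT2TE45640 and shares its reads, with 3828, 4121 and 3435 against 1390, 1404 and 1260.

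The 3 palindromes on chromosome 3 gave similar values. AT3TE54270 (ATREP10D) held 1136, 1358 and 1253 reads in nrpd1-/-, against 827, 788 and 687 in mat nrpd1+/-, a change of 0.16 ± 0.33 on the log2 scale. AT3TE52895 and AT3TE52900 changed by 0.17 ± 0.33 and 0.21 ± 0.33, and AT3TE54345 by 0.06 ± 0.33. AT3TE54350 and AT3TE54355 had 0.62 ± 0.34 and 0.74 ± 0.33, with every nrpd1-/- library above every mat nrpd1+/- library, but under the fold needed for a call. Each copy is so close to the others that reads matching several of them may have been placed at only 1, so the division of reads among the 4 copies is uncertain.

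The genes in these palindromes mostly went with the TEs. Of the 6 pseudogenes tested there, AT2G25025, AT3G31903, AT3G32313, AT3G32316 and AT3G32371 were neither lower nor higher. The sixth, AT3G31902, at the outer end of the first chromosome 3 palindrome, fell to 281, 311 and 250 reads in nrpd1-/-, against 727, 630 and 476 in mat nrpd1+/- (log2 fold change -1.69 ± 0.36 SE, edgeR adjusted p = 4.4e-06). The single-arm relatives were called lower, as were 84.4% of all tested genes, and so differed from the palindromes. The cause of this difference was not tested. AGL28 (AT1G01530), an imprinted MADS-box gene, held 5, 1 and 6 reads in nrpd1-/-, against 367, 352 and 212 in mat nrpd1+/- (log2 fold change -6.79 ± 0.55 SE, edgeR adjusted p = 4.3e-34). AGL23 (AT1G65360), a MADS-box gene known from female gametophyte and embryo development, held 2, 2 and 0 reads, against 337, 325 and 204 (-8.22 ± 0.63, adjusted p = 5.9e-38).

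**Figure D3:**
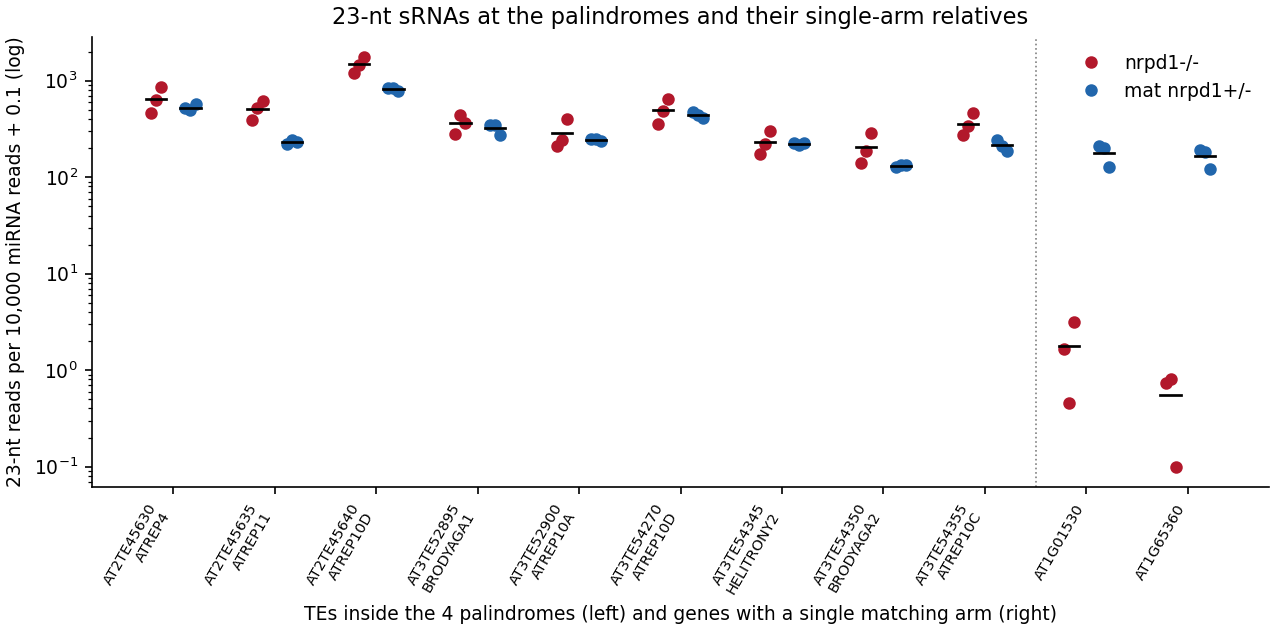
Levels of 23-nt sRNAs (reads per 10000 mature miRNA reads plus 0.1, log axis) in each library at the 9 TEs of the 4 palindromes and at the 2 single-arm genes AGL28 (AT1G01530) and AGL23 (AT1G65360), with the mean as a bar. The palindromic TEs lay between 131 and 1473 on average in both groups, while the single-arm genes fell to means of 1.66 and 0.447 in nrpd1-/-.

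Inverted repeats were then counted at all tested features. The genome within 2000 bases of each tested feature was aligned to itself, and an inverted alignment of at least 200 bases overlapping the feature was counted. Of the 20 TEs not called lower, 10 held one, against 7.34% of all 12126 tested TEs and 4 of the 20 TEs with the highest level in mat nrpd1+/-. Of these 10, 9 are the palindrome TEs already described, and the other is META1 AT2TE45665. Of the 148 genes not called lower outside the structural RNA classes, 19 did, and of the 20 of these with the highest level in nrpd1-/-, 9 did, against 4.06% of such tested genes and 4 of the 20 with the highest level in mat nrpd1+/-. Of these 9, 5 are the pseudogenes of the 4 palindromes. This count was made after the values were seen and is given as a description, with no test. It misses repeats with more distant arms. A search within 8000 bases, made only for the TEs not called lower that had no such repeat, found one at AT3TE08270. Its arms were 98.9% identical over 3249 aligned bases. Outside the palindromes, AT2G24340 is annotated as a DNA-binding transcription factor and holds the MIR5639 hairpin inside a 2706-base inverted repeat. It held 1943, 1958 and 969 reads in nrpd1-/-, against 783, 750 and 781 in mat nrpd1+/- (log2 fold change 0.44 ± 0.34). The pseudogene AT2G25015 held 1883, 1982 and 1637 reads, against 958, 946 and 806 (0.45 ± 0.34), and the lncRNA AT2G08050 held 567, 503 and 367, against 193, 202 and 199 (0.67 ± 0.37). AT3G44570 and AT3G44580, which form the arms of an inverted repeat 90.7% identical over 3365 aligned bases, had changes of 0.75 ± 0.41 and -0.67 ± 0.40. None of these 5 genes was called.

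The other TE called higher was ATREP3 AT3TE41045 (chr3:9857882-9859946). Its 158, 146 and 99 reads in nrpd1-/-, against 20, 20 and 22 in mat nrpd1+/-, gave levels of 50.7 ± 1.15 in nrpd1-/- and 11.9 ± 1.01 in mat nrpd1+/- (SD, n = 3 each; log2 fold change 2.09 ± 0.42 SE, edgeR adjusted p = 5.7e-07). Its 24-nt reads moved the same way, with 1598, 1783 and 785 in nrpd1-/-, against 114, 90 and 151 in mat nrpd1+/-. Outside the palindromes the most abundant TE that was not called was ATGP6 AT3TE63870 (chr3:15797694-15798633), with 834, 1347 and 755 reads in nrpd1-/-, against 671, 593 and 489 in mat nrpd1+/- and overlapping levels.

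A second set of TEs that kept 23-nt reads consisted of very short fragments annotated as ATDNA12T3_2. Of the 145 tested insertions of this family, 112 were 89 to 1285 bases long and all of them were called lower. Of the 33 that were 54 to 78 bases long, 27 were called lower and 6 were not. The 6 were 63 or 64 bases long, and 2 of their sequences, those of AT4TE14160 and AT1TE54190, are shown. AT4TE14150, AT4TE14155 and AT5TE40485 each differed from AT4TE14160 by 1 base, and AT1TE54190 differed from it by 6. Capitals in the second mark bases that differ from the first.
AT4TE14160, chr4:3057201-3057264, minus strand: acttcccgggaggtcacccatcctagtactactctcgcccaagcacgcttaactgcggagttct
AT1TE54190, chr1:16433955-16434018, minus strand: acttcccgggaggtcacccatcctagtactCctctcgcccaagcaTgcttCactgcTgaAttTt
The sequence of AT4TE14160 was found 14 times in the genome. It resembles part of the 5S ribosomal RNA, although the annotation used lists no 5S gene there. AT4TE14160 held 35, 20 and 23 reads in nrpd1-/-, against 22, 8 and 13 in mat nrpd1+/-, and AT1TE54190 held 24, 16 and 14, against 15, 3 and 2. Both pairs of groups overlapped in level, and the changes were 0.26 ± 0.44 and 0.82 ± 0.43 on the log2 scale.

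At genes the loss was broad but less complete. Of 33433 genes listed, 3004 were tested, and 2535 of these were called lower in nrpd1-/- (84.4%), 30 were called higher (0.999%) and 439 were neither. Here too most genes passed the filter on low counts through mat nrpd1+/-. Of the 445 tested genes with at least 10 reads in every nrpd1-/- library, 37 were lower, 29 higher and 379 neither. The median change over the tested genes was -6.18 at the floor, a 72.6-fold fall, and 962 genes had no read in nrpd1-/-. The calls divided by type. Protein-coding genes had 1885 lower, 6 higher and 115 neither, lncRNA genes 266 lower and 10 neither, and pseudogenes 326 lower and 10 neither. The tRNA genes had 3 lower, 15 higher and 167 neither, snoRNA genes 1 lower, 5 higher and 46 neither, and the 3 tested rRNA genes were not called. Of the chloroplast genes 5 were lower, 3 higher and 55 neither, and of the mitochondrial genes 13 were lower and 12 neither.

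Under other scalings the split of gene calls moved. With the summed 23-nt genic reads and TMM factors, 2235 genes were lower and 454 higher, and with total quality-filtered reads 2053 were lower and 628 higher. Against the miRNA scaling these moved the log2 values by about 1.26 and 1.95, the shifts in mean library size. Values near 0, such as those of the structural RNAs and of the palindromes, therefore depend on the scale, and so do small falls, such as those of TAS1A, TAS1C, YUC10, MET1 and AT3G31902 described with their values. The median changes of -7.32 at TEs and -6.18 at genes were larger than these shifts.

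The genes with the most 23-nt sRNAs in mat nrpd1+/- lost them. AT2G16030 (chr2:6973673-6975007), annotated as an S-adenosyl-L-methionine-dependent methyltransferase, held 10, 14 and 8 reads in nrpd1-/-, against 6944, 5466 and 4204 in mat nrpd1+/-. Its level was 4.07 ± 0.918 in nrpd1-/- and 3173 ± 733 in mat nrpd1+/- (SD, n = 3 each), which leaves 0.128% (log2 fold change -9.59 ± 0.51 SE, edgeR adjusted p = 3.0e-73). AT2G06555, AT2G08986, AT4G03580, AT1G40104 and AT5G27606 all encode uncharacterized proteins. AT2G06555 (chr2:2604148-2604927) held 17, 19 and 12 reads in nrpd1-/-, against 6248, 4895 and 3674 in mat nrpd1+/-. In the other 4 genes 3 to 28 reads per nrpd1-/- library stood against 1477 to 3774 per mat nrpd1+/- library, and 0.151 to 0.477% of the level was left. As at the TEs, the groups were separated by more than 100-fold in each of these genes.

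The steepest fitted falls were again at genes with no read in nrpd1-/-. The pseudogene AT2G04120, derived from a RAB GTPase gene, held 605, 617 and 449 reads in mat nrpd1+/- and was at least 848-fold lower in nrpd1-/-. AT5G49590, of unknown function, was at least 750.5-fold lower. The pectin methylesterase inhibitor pseudogene AT1G36700 was at least 532-fold lower, and AT2G46190, a mitochondrial glycoprotein family gene, at least 519-fold lower.

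Structural RNAs and organelle genes dominated what remained at genes. They gave 74.4, 62.5 and 67.2% of the 23-nt genic reads in nrpd1-/-, against 8.90, 10.14 and 17.8% in mat nrpd1+/-. Per miRNA read their level was 3.73 ± 0.692 in nrpd1-/- and 2.65 ± 0.596 in mat nrpd1+/- (SD, n = 3 each; exact permutation p = 0.2). All other genes together had 1.72 ± 0.166 in nrpd1-/- and 19.9 ± 4.75 in mat nrpd1+/-, a 11.6-fold difference (exact permutation p = 0.1). The 18S rRNA genes AT3G41768 and AT2G01010 had the highest levels of all genes in nrpd1-/-, 10474 ± 2190 and 9562 ± 1929, against 6646 ± 1636 and 6140 ± 1449 in mat nrpd1+/-. They are near-identical copies, so reads cannot be assigned to one or the other, and neither was called (edgeR adjusted p = 0.068 and 0.075).

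**Figure D4:**
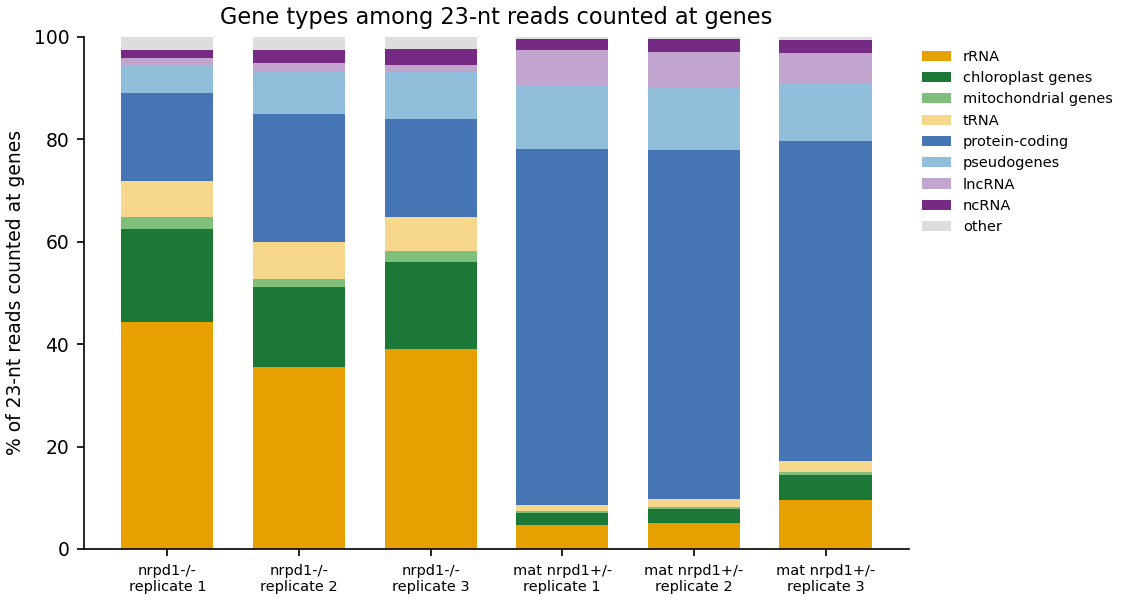
Share of the 23-nt reads counted at genes that each annotated gene type took in each library, in percent. The rRNA genes took 35.5 to 44.2% in the nrpd1-/- libraries and 4.67 to 9.48% in the mat nrpd1+/- libraries, and protein-coding genes 17.01 to 24.9% and 62.6 to 69.6%.

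Among the 30 genes called higher, 15 were tRNA genes, which is 8.11% of the 185 tested, against 0.999% of all tested genes. These were 7 of 24 tested tRNA-Ser genes, 6 of 34 tRNA-Gly and 2 of 16 tRNA-Asp. The median changes over all tested genes of these types were 0.67, -0.16 and 0.69 on the log2 scale. All 7 tRNA-Ser genes called higher carry the anticodon AGA, but its share among the tested tRNA-Ser genes was not counted. Leaving out mat nrpd1+/- replicate 3 raised the number of genes called higher to 69, leaving out nrpd1-/- replicate 3 raised it to 56, and leaving out nrpd1-/- replicate 1 lowered it to 18. Leaving miRNA entries inside tested features out of the scale lowered it to 11. Among tRNA-Ser genes AT1G57180 changed most, with 39, 17 and 11 reads in nrpd1-/-, against 5, 3 and 1 in mat nrpd1+/- (log2 fold change 2.21 ± 0.52 SE, edgeR adjusted p = 2.4e-05). Its sequence is given with the anticodon in capitals, since nearly identical serine tRNA genes share it and may share reads.
AT1G57180, tRNA-Ser, chr1:21291461-21291542, plus strand: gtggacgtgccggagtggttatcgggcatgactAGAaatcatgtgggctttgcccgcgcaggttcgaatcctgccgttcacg
AT1G15650, also a tRNA-Ser (AGA) gene, held 30, 21 and 14 reads in nrpd1-/-, against 8, 4 and 0 in mat nrpd1+/-, and AT2G29030, a tRNA-Gly gene, held 74, 31 and 21, against 5, 10 and 6.

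The largest rise at any gene was at AT2G43375 (chr2:18017116-18018691), an RNA gene of unknown function. It held 365, 256 and 165 reads in nrpd1-/-, against 15, 21 and 28 in mat nrpd1+/-, with levels of 96.7 ± 16.2 in nrpd1-/- and 12.3 ± 4.06 in mat nrpd1+/- (SD, n = 3 each; log2 fold change 2.97 ± 0.46 SE, edgeR adjusted p = 1.3e-10). AT1G35630, a protease-associated RING finger gene, rose with few reads, 21, 22 and 25 in nrpd1-/-, against 5, 2 and 7 in mat nrpd1+/- (log2 fold change 1.70 ± 0.51), and was not called without mat nrpd1+/- replicate 2 (1.34).

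AT1G76065, which encodes an LYR-family protein of Fe/S cluster biogenesis, also rose and contains the MIR835 hairpin. It held 488, 472 and 194 reads in nrpd1-/-, against 58, 55 and 77 in mat nrpd1+/- (log2 fold change 1.94 ± 0.40 SE, edgeR adjusted p = 1.7e-06). The groups did not overlap. Reads of 24 nt were higher as well, with 1563, 1053 and 474 in nrpd1-/-, against 172, 201 and 269 in mat nrpd1+/-. The hairpin coincides with an inverted repeat of 484 bases with arms 68.8% identical. The mature sequences of this hairpin and of MIR5639 are shown with the seed, bases 2 to 8, in capitals, because they mark where in these genes a hairpin is annotated.
ath-miR835-5p, chr1:28544784-28544804, minus strand: uUCUUGCAuauguucuuuauc
ath-miR835-3p, chr1:28544471-28544491, minus strand: uGGAGAAGauacgcaagaaag
ath-miR5639-5p, chr2:10356784-10356804, plus strand: uAGUCCACuguggucuaaggc
ath-miR5639-3p, chr2:10357137-10357160, plus strand: uUUAGCCUcagaccacgguggacu
No seed is shared among these 4.

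Lists of genes with known roles were counted against these shares. Of 21 imprinted endosperm genes 9 were tested, and all 9 were called lower, against 84.4% of all tested genes and 94% of tested protein-coding genes. Their median change was -6.88 at the floor, against -6.18 over all tested genes and -6.43 over protein-coding genes. AGL36, a maternally expressed MADS-box gene, held 1, 4 and 0 reads in nrpd1-/-, against 776, 543 and 434 in mat nrpd1+/- (log2 fold change -8.94 ± 0.59 SE, edgeR adjusted p = 4.3e-50). MYB3R2, a paternally expressed MYB gene, held 1, 4 and 1 reads, against 396, 307 and 243, and AGL92, a MADS-box gene, 3, 0 and 0, against 171, 112 and 79. YUC10, an auxin biosynthesis gene, was the least changed of the list, with 21, 18 and 0 reads in nrpd1-/-, against 31, 21 and 25 in mat nrpd1+/-, and a change of -1.66 ± 0.51 that turned to 0.34 with total reads as the scale (AT1G48910).

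Few genes of the silencing machinery carried enough 23-nt reads. Of 27 listed, only NRPD1 and MET1 were tested. Both were called lower, as were 84.4% of all tested genes and 94% of tested protein-coding genes. NRPD1 fell by 6.98 ± 0.71 on the log2 scale (edgeR adjusted p = 3.0e-22), and its 24-nt reads were 10, 13 and 10 in nrpd1-/-, against 288, 258 and 242 in mat nrpd1+/-. MET1, the maintenance DNA methyltransferase, had 23, 15 and 6 reads, against 32, 23 and 9, a change of -1.18 ± 0.49 with overlapping groups. The call for MET1 (AT5G49160) was lost without nrpd1-/- replicate 3, mat nrpd1+/- replicate 1 or mat nrpd1+/- replicate 2, with changes of -0.94, -0.77 and -1.14, and its direction turned with genic TMM scaling (0.10) and total reads (0.81).

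A pair of lists held loci whose siRNAs are known to need RDR6 and DCL4 rather than Pol IV. Of 8 TAS loci, which are cut by miRNAs and give trans-acting siRNAs, 5 were tested and 4 were called lower, close to the 84.4% of all tested genes, with a median change of -1.49 against -6.18 over all tested genes. TAS1A held 309, 405 and 291 reads in nrpd1-/-, against 766, 757 and 558 in mat nrpd1+/- (log2 fold change -1.61 ± 0.36 SE, edgeR adjusted p = 9.3e-06). With DESeq2 size factors TAS1A (AT2G27400) and TAS1C (AT2G39675) had -0.97 and -0.69 and were not called, and with total reads their direction turned, to 0.30 and 0.57. TAS1C changed by -1.34 ± 0.35 and TAS1B by -3.49 ± 0.42, with 37, 55 and 36 reads in nrpd1-/-, against 385, 341 and 246 in mat nrpd1+/-. The TAS1 loci are similar in sequence and may share reads. TAS2 had 731, 871 and 751, against 844, 804 and 724, and a change of -0.56 ± 0.35 that was not called. The 24-nt reads of TAS2 numbered 5002, 5283 and 4341 in nrpd1-/- and 2621, 2665 and 2585 in mat nrpd1+/-. Of 16 PPR genes that yield phased siRNAs, 9 were tested and none was called in edgeR, against 84.4% lower of all tested genes, with a median change of 0.03. Of the 9, 0 had an unadjusted p below 0.05 in edgeR and 0 in DESeq2. AT1G63080, for example, held 75, 83 and 53 reads in nrpd1-/-, against 38, 46 and 42 in mat nrpd1+/-, a change of 0.15 ± 0.46. The summed level of the PPR list was 120.0 to 145 in nrpd1-/- and 125 to 147 in mat nrpd1+/-. These genes are close relatives in a cluster, so reads may be shared among them.

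Marker genes were counted in the same way, although their sRNAs say nothing of cell types. The 4 tested of 8 endosperm markers were called lower, against 84.4% of all tested genes and 94% of tested protein-coding genes. Among them FWA had 0, 0 and 0 reads in nrpd1-/-, against 27, 15 and 13 in mat nrpd1+/-, and was at least 27.9-fold lower. AGL62, a regulator of endosperm cellularization, held 4, 1 and 1, against 37, 35 and 13. The only embryo marker tested, WOX8, was at least 35.01-fold lower, and none of the 6 seed coat markers had enough reads.

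The 23-nt class also lost weight relative to its neighbours at TEs. There, 23-nt reads made up 7.32, 7.89 and 8.68% of the 22- to 24-nt reads in nrpd1-/-, against 30.5, 28.1 and 26.0% in mat nrpd1+/- (exact permutation p = 0.1). The groups were separated by more than 17 percentage points. Over all genes it was 19.5% ± 1.29 in nrpd1-/- and 24.6% ± 2.02 in mat nrpd1+/-, but over 23- and 24-nt reads alone 28.5% ± 1.37 and 28.4% ± 2.04, so this difference was not seen without the 22-nt reads. A split by call uses the 23-nt change itself, which favours a low 23-nt share in nrpd1-/- among features called lower, so the values of the split sets are a description with no test. At TEs called lower the share was 10.4% ± 1.37 in nrpd1-/- and 28.4% ± 2.17 in mat nrpd1+/-, and at the 20 TEs not called lower it was 6.69% ± 0.587 and 8.001% ± 0.816 (SD, n = 3 each). At genes called lower the share was 7.85% ± 0.440 in nrpd1-/- and 25.4% ± 2.36 in mat nrpd1+/-, and at tested genes not called lower 20.8% ± 1.497 and 21.2% ± 0.577 (SD, n = 3 each). At genes and TEs called lower, 22-nt reads were 38.8% ± 5.15 and 23.5% ± 3.93 of the 22- to 24-nt reads in nrpd1-/-, against 8.65% ± 0.0931 and 6.91% ± 0.442 in mat nrpd1+/-.

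**Figure D5:**
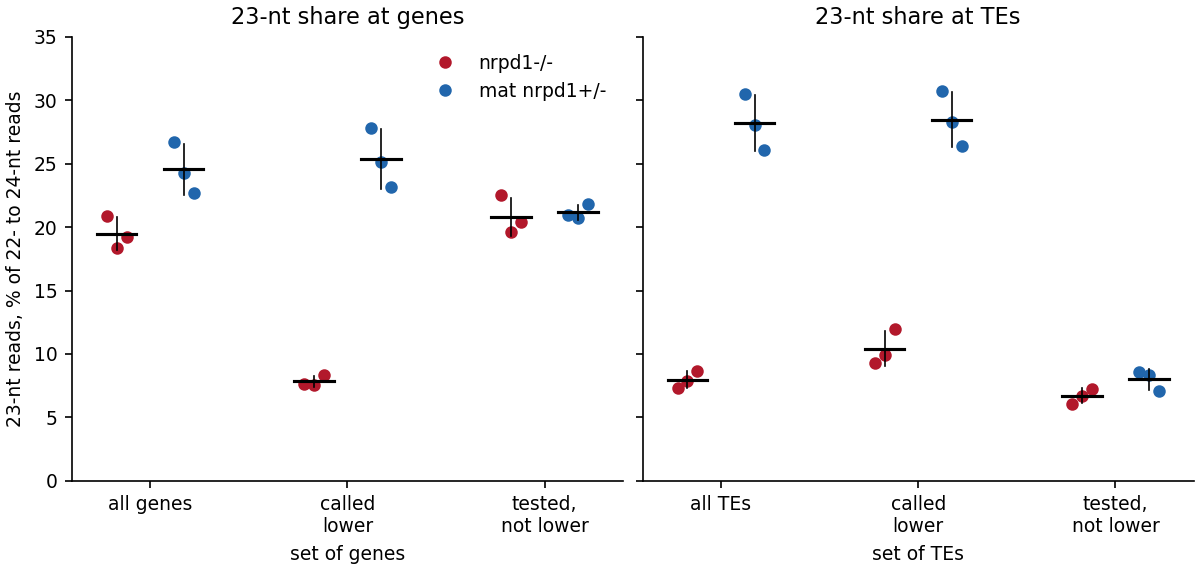
Reads of 23 nt as a percentage of 22- to 24-nt reads at all features, at those called lower and at those tested but not called lower, with 1 point per library, the mean as a bar and 1 SD as a line. At TEs called lower the nrpd1-/- libraries lay between 9.32 and 11.9% and the mat nrpd1+/- libraries between 26.4 and 30.7%, while at TEs not called lower the groups overlapped. The split uses the 23-nt change itself.

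The change of 23-nt sRNAs was then tested against that of 24-nt sRNAs at each feature, in a fit with a term for each library. At TEs, 598 of 12126 had a lower 23-nt than 24-nt change (4.93%) and 13 a higher one (0.107%). The median difference over all 12126 was -1.11 on the log2 scale, and 2453 had an unadjusted p below 0.05 in edgeR. At genes, 185 of 3004 had a lower (6.16%) and 31 a higher one (1.03%). The median difference there was -0.86, and 704 had an unadjusted p below 0.05 in edgeR. The called counts do not give the share of features in which 23-nt reads fell further. These counts depended on single libraries. Without nrpd1-/- replicate 1, nrpd1-/- replicate 2 or mat nrpd1+/- replicate 2, the number of TEs with the lower 23-nt change was 174, 150 and 282 and that of genes 73, 91 and 98. The number of genes with the higher 23-nt change was 11, 19 and 9 without these libraries, and the number of TEs 8, 9 and 7, with 8 TEs also without nrpd1-/- replicate 3.

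In the features with the largest lower 23-nt changes, both classes fell, and the fitted fall of 23-nt reads was larger. Where no 23-nt read was found in nrpd1-/-, the size of the fitted difference is uncertain. ARNOLDY2 AT3TE53720 had 1, 0 and 0 reads of 23 nt in nrpd1-/-, against 39, 52 and 39 in mat nrpd1+/-, and 60, 69 and 61 reads of 24 nt, against 142, 129 and 115. Its 23-nt ratio of mat nrpd1+/- over nrpd1-/- was 198 with a 95% counting interval of 34.9 to 7876. The ROMANIAT5 element AT4TE08835 had no 23-nt read in nrpd1-/-, and its 24-nt reads fell to 18, 16 and 10 in nrpd1-/-, against 592, 697 and 489 in mat nrpd1+/-. The LINE AT2TE06885 likewise had no 23-nt read in nrpd1-/- and 15, 18 and 11 reads of 24 nt, against 628, 567 and 454 in mat nrpd1+/-. Among genes, AT4G09660 had no 23-nt read and 15, 11 and 5 reads of 24 nt in nrpd1-/-, against 274, 201 and 168 of 23 nt and 495, 454 and 385 of 24 nt in mat nrpd1+/-. LURE1.3, a pollen tube attractant gene, and AT1G77145 also had no 23-nt read in nrpd1-/-. Their 24-nt reads were 10, 13 and 0 for LURE1.3 (AT5G43513) and 3, 10 and 5 for AT1G77145 in nrpd1-/-, against 53, 43 and 27 and 70, 102 and 70 in mat nrpd1+/-.

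Among the features with a higher 23-nt than 24-nt change was the pseudogene AT3G32990 (chr3:13534183-13536711). It held 124, 229 and 183 reads of 23 nt in nrpd1-/-, against 997, 864 and 569 in mat nrpd1+/-, and 16, 33 and 19 reads of 24 nt, against 1927, 1754 and 1413. The log2 change of 23-nt sRNAs was 4.07 higher than that of 24-nt sRNAs (edgeR adjusted p = 1.9e-60). ATLANTYS2 AT1TE51170 held 18, 15 and 11 reads of 23 nt in nrpd1-/-, against 55, 48 and 38, and 1, 0 and 0 reads of 24 nt, against 105, 82 and 66. AT1G35630 and the tRNA-Ser gene AT1G57180 were also in this set, as were the ATDNA12T3_2 fragments AT1TE54190 and AT2TE12615.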

How the data were processed

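Per the labels and the study's methods, the authors trimmed adapters (Cutadapt), removed PCR duplicates, aligned reads with Bowtie 1.2.2 to TAIR10 and a Ler pseudo-genome, kept 1 best alignment per read and counted size classes in Araport11 genes and TEs with bedtools. Multi-mapping reads are thus uncertain at near-identical copies. The deposited raw counts of the 23-nt tables were used, and 372 other per-library columns were not. Reads not assigned to a gene, because they lay in none or were ambiguous, were 57.9% in nrpd1-/- and 89.1% in mat nrpd1+/- of the 23-nt gene tables. The authors' fold changes and p-values against WT were not used.

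Genes and TEs were fitted separately with edgeR 4.0.16 in R 4.3.3 (filterByExpr, minimum count 10; quasi-likelihood test; Benjamini-Hochberg adjustment over all tested features). Library size was the sum of 427 mature miRNA entries of the 24-nt gene tables, of which 81 lie inside tested features (27.9% of entry reads in nrpd1-/-, 41.1% in mat nrpd1+/-). SE is the absolute log2 fold change divided by the square root of the quasi-likelihood F statistic, so it is approximate, above all at few reads. Features named were the 6 lower ones with the highest mat nrpd1+/- level, the 4 steepest falls, the 6 largest rises, the 6 highest in nrpd1-/-, list members by reads, and the 3 largest of each direction in the 23- against 24-nt test. Palindrome genes, TEs not called and ATDNA12T3_2 fragments were added after values were seen. The comparison and lists were chosen with earlier results of these data known. Alternatives were other scalings, filters, DESeq2 1.42.0, a replicate block and leaving out each library. Counting intervals cover counting error only. Replicates came from different plants, and no 2 libraries agreed within sampling noise. On simulated data 82 to 90% of genes and 90% of TEs changed 3-fold were recovered, and 98 to 100% of either changed 8-fold. The 23- against 24-nt test recovered 50% of genes and 42 to 44% of TEs changed 3-fold, and 96 to 100% changed 8-fold. Of the unchanged features 15 genes and 12 TEs were called, and 9 and 7 in the 23- against 24-nt test. The simulation drew both groups from mat nrpd1+/- means and a common mat nrpd1+/- dispersion, and changed only features with enough expected reads. It therefore does not give the recovery at features with few reads or with the spread of the nrpd1-/- libraries.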

Additional observations from a re-analysis of the deposited data

How the results depend on the processing

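Of 1369 values of 80 named features under the alternatives, 1243 kept their direction and their side of the threshold, among them all 577 of the 33 features with a log2 fold change below -6. The number of genes called lower was 10786 with no filter and 1467 at a minimum count of 30, and that of TEs was 19586 with no filter. The number of genes called higher was 454 with genic TMM scaling, 228 with DESeq2 size factors, 628 with total reads, 11 without miRNA entries inside tested features, 7 without structural RNA and organelle genes, 47 with no filter and 10 at a minimum count of 30. For TEs called higher these were 20, 9, 28 and 1 for the same 4 scalings, 5 with no filter and 4 with no minimum fold. At a minimum count of 30, 13 genes and 6 TEs had the higher 23-nt than 24-nt change. Leaving out 1 library gave 2670 to 3110 genes lower, 18 to 69 higher, 12480 to 13465 TEs lower and 1 to 6 higher, and for 23 against 24 nt 73 to 164 genes lower, 9 to 34 higher, 150 to 581 TEs lower and 7 to 15 higher. It gave summed log2 changes of -2.16 to -1.89 for genes and -7.19 to -6.85 for TEs. The genic 23-nt share over 23- and 24-nt reads alone differed by 0.0665 percentage points.

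Values that changed sign lay near 0 or were shifted by the scale. Without miRNA entries inside tested features they were -0.11 for AT2G01021, -0.014 for AT2TE45630, -0.16 for AT3TE54270, -0.15 for AT3TE63870, -0.14 for AT3TE52895, -0.15 for AT1G63080, -0.23 for AT1G63130, -0.21 for AT1G62930, -0.11 for AT3TE52900, -0.26 for AT3TE54345 and -0.046 for AT4TE14160. With genic TMM scaling they were 0.10 for AT5G49160, 0.67 for AT2G39681, 0.76 for AT2TE45665, 0.55 for AT3TE08270, 1.08 for AT3TE56875 and 0.90 for AT5TE40485. With DESeq2 size factors they were 0.091 for AT2G39681, 0.16 for AT2TE45665, 0.47 for AT3TE56875 and 0.31 for AT5TE40485. With total reads they were 0.81 for AT5G49160, 0.57 for AT2G39675, 1.33 for AT2G39681, 0.30 for AT2G27400, 0.34 for AT1G48910, 1.44 for AT2TE45665, 1.24 for AT3TE08270, 1.77 for AT3TE56875 and 1.588 for AT5TE40485. Leaving out 1 library gave -0.066 to 0.35 for AT3TE54270, -0.052 to 0.37 for AT3TE63870, -0.079 to 0.20 for AT1G62930, -0.10 to 0.39 for AT3TE52900, -0.18 to 0.23 for AT3TE54345, -0.70 to 0.52 for AT3TE56875, -0.032 to 0.70 for AT4TE14160 and -0.87 to 0.72 for AT5TE40485.

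The scalings without entries inside tested features and the fit without structural RNAs were chosen after seeing the data. Replicate numbers did not pair the samples (correlation of same-numbered deviations -0.05 to 0.07 at genes), and with the replicate block 2535 genes and 12105 TEs were lower and 19 genes and 2 TEs higher. Depth in nrpd1-/- limits the falls, since 3 reads over the group are a level of 0.377. The cause of these changes was not tested.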

Other observations

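A pair of genes on chromosome 5, named here after their values were seen, varied widely between mat nrpd1+/- libraries. AT5G09700 held 128, 34 and 87 reads of 23 nt in nrpd1-/-, against 3, 6 and 228 in mat nrpd1+/-, so that mat nrpd1+/- replicate 3 stood above all other libraries. The nearby AT5G09730 (BXL3), a beta-xylosidase gene, held 134, 69 and 82 reads in nrpd1-/-, against 17, 29 and 235 in mat nrpd1+/-. Neither was called.

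Not every tRNA gene kept its 23-nt reads. The tRNA-Tyr gene AT1G56740 held 0, 1 and 1 reads in nrpd1-/-, against 10, 13 and 10 in mat nrpd1+/- (log2 fold change -4.36 ± 0.56 SE, edgeR adjusted p = 6.0e-12). The tRNA-Gly gene AT1G33370 held no read in any nrpd1-/- library, against 21, 15 and 20 in mat nrpd1+/- (edgeR adjusted p = 4.6e-19), whereas 6 other tRNA-Gly genes were called higher. Among mitochondrial genes 13 of 25 were called lower (52%), against 5 of 63 chloroplast genes (7.94%) and 84.4% of all tested genes. The tested mitochondrial genes together held 0.0986 reads per miRNA read in nrpd1-/- and 0.0697 in mat nrpd1+/-. The difference between mitochondrial and chloroplast genes was not tested.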
